A study of Gallus gallus with 6 samples.

Results

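Apoptosis and p53 response genes, 33 in all, were followed in the sensory epithelium of the chick cochlea (the basilar papilla), in explants that the labels describe as regenerating hair cells. They were taken by gene name from a list of caspases, BCL2 family members, death receptor genes and p53 targets. Of the 25619 genes in the table, 32 carried one of these names. XIAP, an inhibitor of caspases, had no row under that name and was read from the row named BIRC8, whose RefSeq gene entry (395280) gives XIAP as a synonym; it was added after the values were seen and is kept out of the counts. Ducts were dissected from Gallus gallus chicks on post-hatch day 1 and kept in DMEM medium containing 1% serum. Both groups were given streptomycin (SM), an aminoglycoside toxic to hair cells, over 48 h. The 3 control libraries, called SM, received nothing further that the labels name, and the 3 libraries called SM+BQ788 also received BQ788, a blocker of the endothelin receptor type B (EDNRB). All were labelled day 3, and no library here came from tissue without SM, so the effect of SM itself on these genes was not measured. RNA was taken from epithelium lifted off with thermolysin. Whether the replicates are separate animals or cultures is not stated in the labels, so each p-value reflects the spread among these 6 libraries alone.

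Apoptosis runs along a pair of routes that end in caspases, proteases that take a cell apart. In the mitochondrial route BCL2 family proteins decide whether cytochrome c leaves the mitochondrion and builds the apoptosome with APAF1 and caspase 9, while in the receptor route ligands of the tumour necrosis factor family recruit FADD and caspase 8. The transcription factor p53 answers DNA damage and stress by switching on genes for repair, arrest and death, and aminoglycosides are known to kill hair cells in part through JNK signalling and the mitochondrial route.

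Libraries held between 15438305 and 17375656 reads assigned to genes. All 10 supporting cell markers averaged at least 1 FPKM (reads adjusted for gene length and library size). Their summed level was 2911 to 3574 FPKM with SM and 2180.2 to 2839 with SM+BQ788. Most of that sum was TECTB, at a mean of 2108 FPKM over the 6 libraries, with TECTA next at 364. The supporting cell markers SOX2 and PROX1 overlapped between groups, with log2 fold changes of -0.07 and -0.02. SOX2 was spread widely with SM+BQ788, at 61.0, 35.5 and 29.3 FPKM against 44.4, 44.6 and 37.6 with SM. Hair cell markers were present in every library despite SM, with sums of 181 to 189.9 FPKM against 136 to 146. All 8 tested were lower with SM+BQ788, none past the adjusted threshold. At an unadjusted p under 0.05 in limma 7 were lower, as were 11.9% of all genes tested. CIB2 was nearly level at -0.01 on the log2 scale. TMC1, too low to test, averaged 0.683 FPKM with SM and 0.867 with SM+BQ788. Leukocyte markers summed to 102 to 122 FPKM with SM and 105 to 122 with SM+BQ788, and the red blood cell markers HBAD and HBE were at 0 throughout. Fibroblast markers came to 315 FPKM in SM+BQ788 replicate 1, against 123 and 164 in the other SM+BQ788 libraries and 213 to 276 with SM. Schwann cell and neuron markers summed to 193 to 217 FPKM with SM and 152 to 210.3 with SM+BQ788, and 3 of the 7 tested fell past the adjusted threshold in limma (NEFL -0.50, NEFM -0.58 and GAP43 -1.14 on the log2 scale). Single genes of other lists fell past it too, the supporting cell marker FGFR3 (-0.39), the fibroblast marker POSTN (-2.19) and the cartilage marker COL9A1 (-1.11). Of the 6 cartilage markers 4 averaged below 1 FPKM, while COL9A1 averaged 25.0. The supporting cell and fibroblast lists were mixed. Of the fibroblast markers tested 5 were above 0 and 5 below, and of the supporting cell markers 3 were above and 7 below. JAG1 (0.42) and LFNG (0.27) were among the higher supporting cell markers, neither past the adjusted threshold. TECTA (-0.62) and SOX9 (-0.35) were among the lower, both without overlap and neither past that threshold. In either direction 5 of the 10 supporting cell markers were under an unadjusted p of 0.05 in limma, as were 2690 of all 11857 genes tested. The part of these differences in the results on apoptosis genes was not tested, and in bulk RNA fewer cells of a type and less RNA per cell cannot be told apart.

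Most listed genes of the mitochondrial route and the p53 feedback loop were expressed throughout. Of the 32 genes, 4 averaged at least 50 FPKM over the 6 libraries, 11 lay between 10 and 50, 14 between 1 and 10, and 3 below 1 FPKM. The highest were SESN1 (90.2 FPKM), a p53 target that restrains mTORC1 signalling, MCL1 (83.4), a short-lived survival protein of the BCL2 family, GADD45B (72.2), a stress sensor upstream of p38 and JNK, and CYCS (59.8), which encodes cytochrome c. The order among SESN1, MCL1 and GADD45B did not exceed their spread over libraries. All other listed genes were lower than these 4. Of the listed receptor route genes, FADD averaged 17.7 FPKM and TNFRSF1A, CFLAR and FAS 3.45, 3.24 and 1.33 FPKM. Receptor route genes outside the list are not part of this order. Many mitochondrial route genes lay in the same range, among them DIABLO (16.2 FPKM), BAK1 (14.9), CASP9 (7.66) and BID (2.00). The median apoptosis gene varied over the 6 libraries with a coefficient of variation of 10.6%, against 11.7% for the median of all genes tested.

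**Figure D1:**
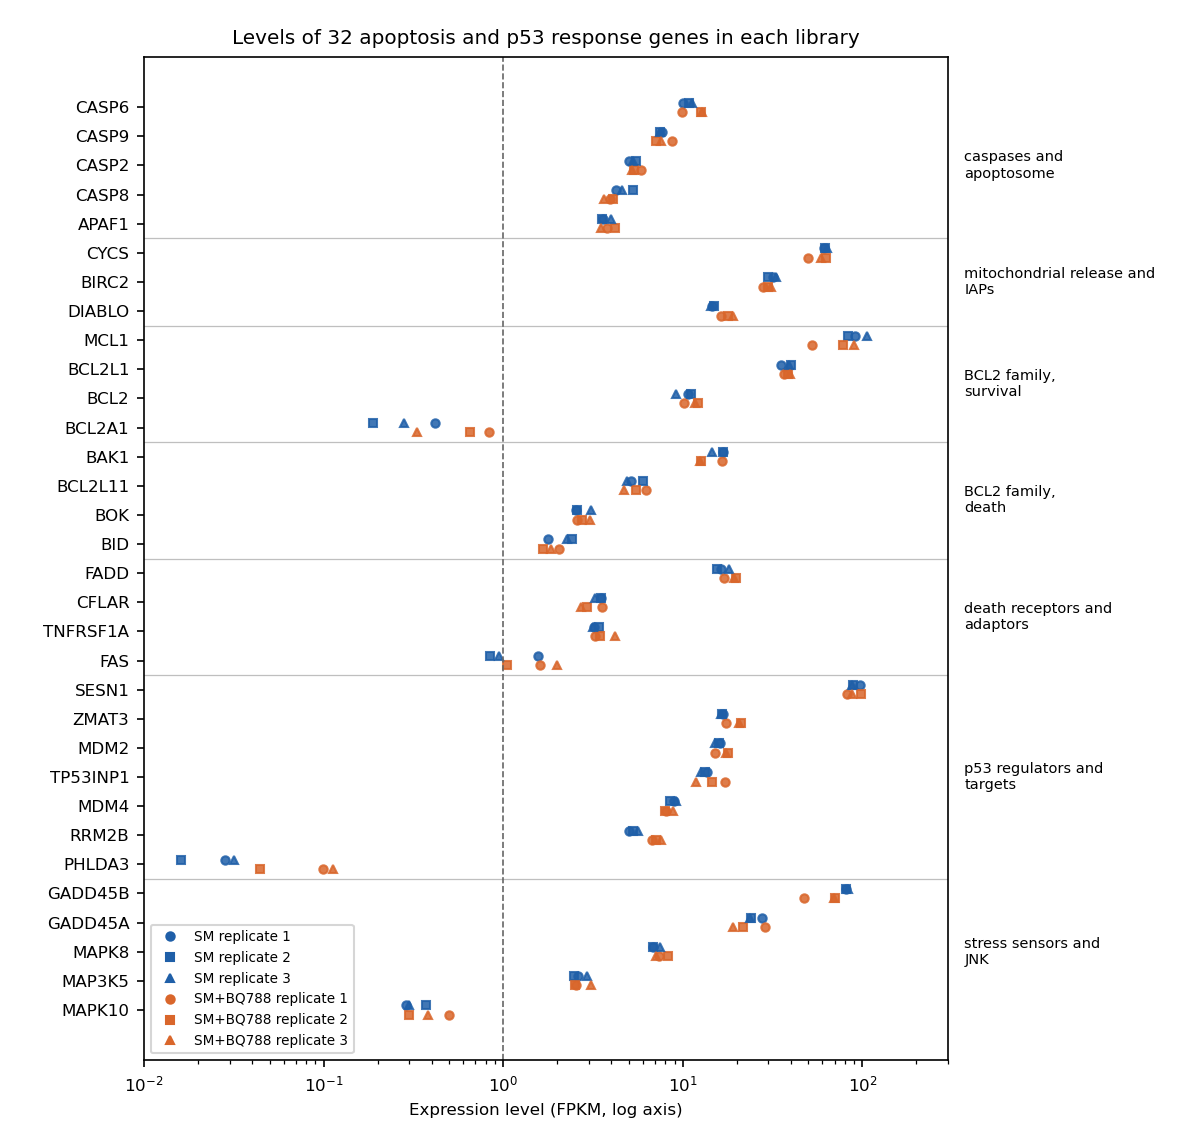
Level in FPKM (log axis) of 32 apoptosis and p53 response genes in each of the 6 libraries, grouped by role and sorted by level in SM replicate 1; the dashed line marks 1 FPKM, the mean needed for testing. SESN1, MCL1, GADD45B and CYCS average at least 50 FPKM, and BCL2A1, MAPK10 and PHLDA3 stay under 1.

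The comparison of SM+BQ788 with SM asked whether blocking EDNRB went with a different level of these genes. None of the 29 genes that averaged 1 FPKM or more passed a Benjamini-Hochberg adjusted p of 0.05 in limma, in which 2.99% of all 11857 genes tested passed. By limma voom on recovered reads 1 passed, RRM2B. At an unadjusted p under 0.05 there were 3 higher (RRM2B, DIABLO and ZMAT3), where 10.8% of all genes were, and 2 lower (GADD45B and CASP8), where 11.9% were. These 5 were also the ones whose groups did not overlap, as 15.2% of all genes did upward and 14.1% downward. Neither share of the 29 stood above the background. The BIRC8 row read as XIAP, kept out of these counts, was also higher without overlap (unadjusted p = 0.0413 in limma). With it the higher shares would be larger. Log2 fold changes ran from -0.41 to 0.37 with a median of 0.03, against 0.02 for all genes tested, and 18 of 29 were above 0. On the log2(FPKM + 1) scale the 95% interval of each of the 29 lay inside 1 log2 unit either way, as did that of 11138 of all 11857 genes tested. The lowest bound was -0.85 in MCL1 and the highest 0.71 in FAS. For FAS, a low gene, the log2 fold change of 0.26 became 0.44 when 0.1 rather than 1 was added to FPKM, so its interval holds for that scale only.

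**Figure D2:**
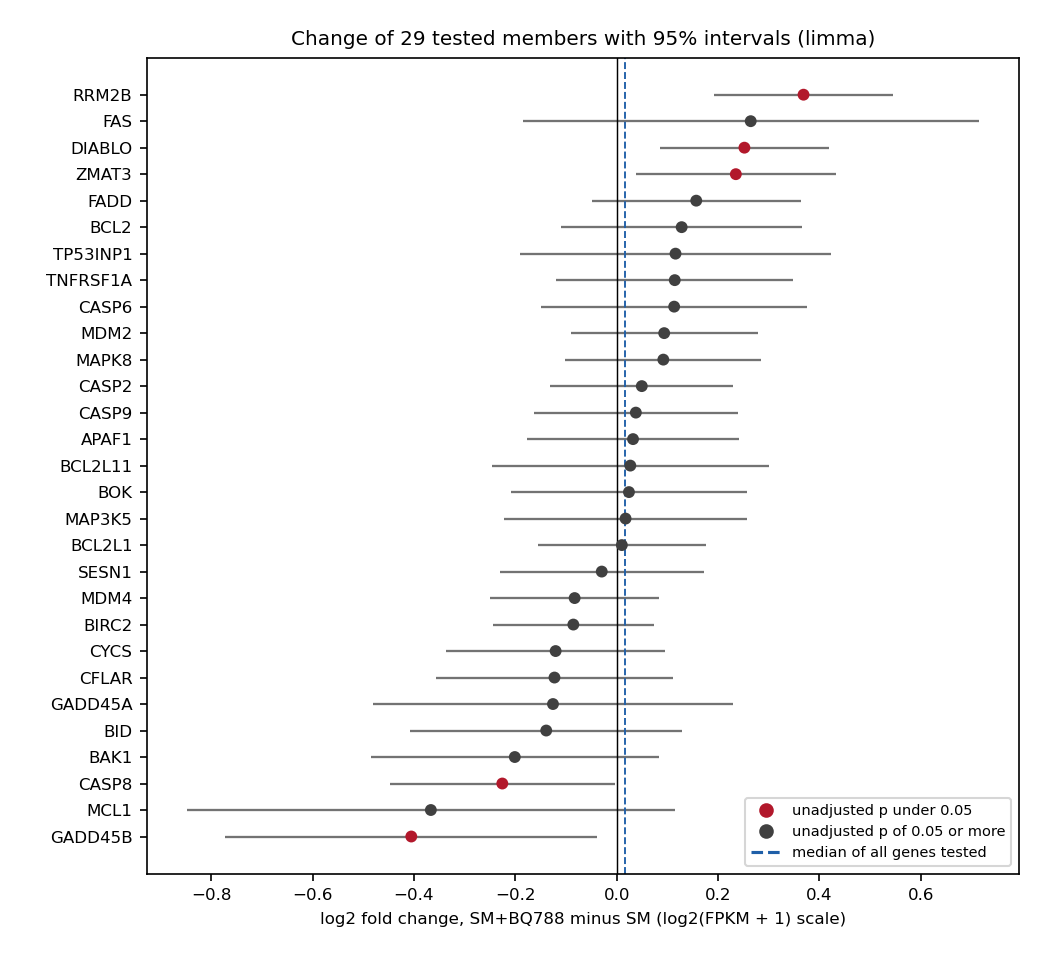
Log2 fold change (SM+BQ788 minus SM, log2(FPKM + 1) scale) of the 29 genes tested, with 95% intervals from limma; the dashed line is the median of all genes tested. RRM2B, DIABLO and ZMAT3 lie above 0 and CASP8 and GADD45B below 0 with intervals that leave out 0, and no gene passed the adjusted threshold.

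One library weighed on the calls. SM+BQ788 replicate 1 was the lowest of its group in 15 of the 29 genes (51.7%), against 41.4% of all genes tested, and GADD45B and MCL1 lay farthest from the SM mean there. Without it 4 genes passed the adjusted threshold in limma, namely RRM2B, ZMAT3 and DIABLO higher (adjusted p = 0.0349, 0.0305 and 0.0368) and GADD45B lower (0.0476), while calls over all genes went from 355 to 1304. Leaving out any other library gave 0 of these genes, and only 1 to 21 calls over all genes. Within groups, the SD of log2 levels was larger with SM+BQ788 in 23 of the 29 genes (79.3%), against 66.7% of all genes tested. FPKM of SM+BQ788 replicate 1 rested on a library size 1.06 times its recovered reads, against 0.992 and 0.948 in replicates 2 and 3. The part of this scaling in the low ranks of replicate 1 was not tested.

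**Figure D3:**
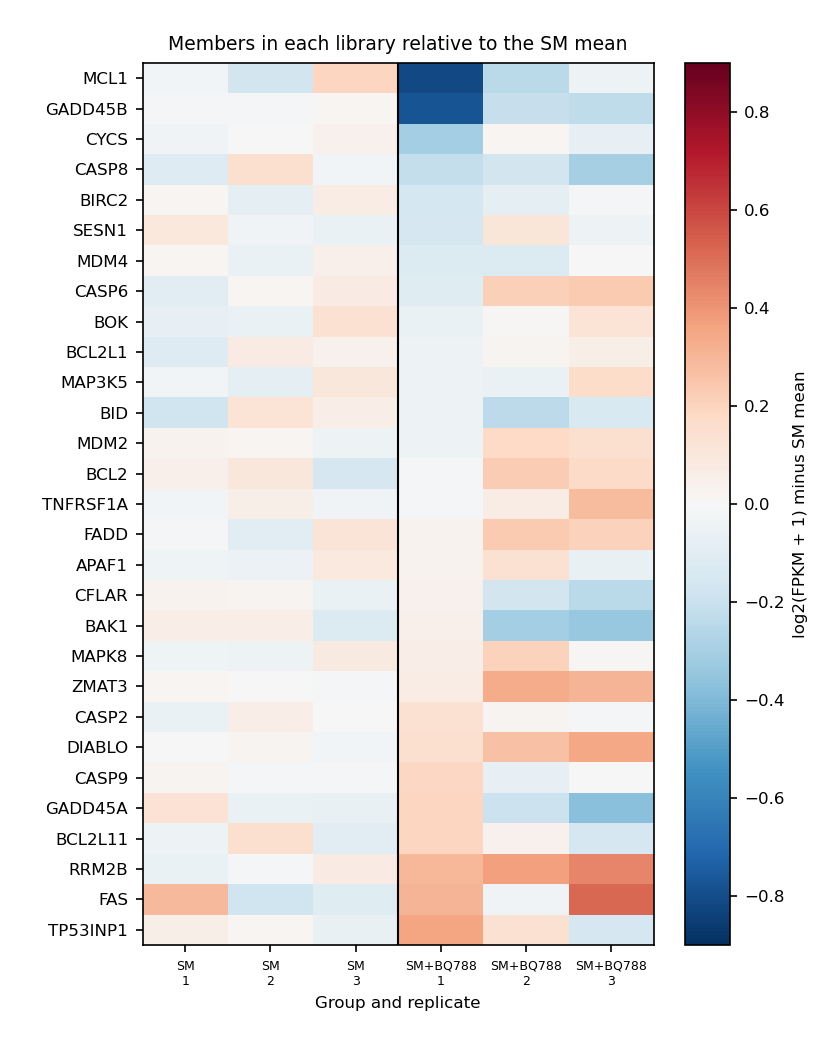
Level of the 29 tested genes in each library relative to the mean of the 3 SM libraries, on the log2(FPKM + 1) scale, sorted by SM+BQ788 replicate 1; red is higher and blue lower. GADD45B and MCL1 are darkest in SM+BQ788 replicate 1, and RRM2B is red in all 3 SM+BQ788 libraries.

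Among p53 regulators and targets, RRM2B had the smallest p of the 29. It encodes the p53-inducible subunit of ribonucleotide reductase, which supplies deoxynucleotides for DNA repair and mitochondrial DNA, and lies on chromosome 2 (128662477 to 128679139, minus strand, GRCg7b). Its level was 5.05, 5.27 and 5.63 FPKM in SM replicates 1 to 3 and 6.77, 7.14 and 7.56 FPKM in the SM+BQ788 libraries. All 3 treated libraries were above all 3 controls, a mean 34.6% higher (7.16 ± 0.397 against 5.32 ± 0.292 FPKM, SD, n = 3 each). The log2 fold change was 0.37 (SE 0.07, limma adjusted p = 0.0551), with an adjusted p of 0.0349 to 0.195 over the alternatives. ZMAT3, a p53-induced RNA-binding zinc finger protein on chromosome 9 (17279298 to 17292747, plus strand), measured 16.7, 16.6 and 16.3 FPKM with SM and 17.4, 21.1 and 20.6 with SM+BQ788. The SM libraries lay close together and the lowest treated library stood just above them (log2 fold change 0.24, SE 0.08, limma adjusted p = 0.161).

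The p53 brakes and the remaining targets that were tested overlapped between groups. SESN1 measured 97.2, 88.8 and 87.1 FPKM with SM and 81.9, 98.0 and 88.0 with SM+BQ788, a log2 fold change of -0.03. The p53 ubiquitin ligase MDM2, itself a p53 target, averaged 15.7 ± 0.487 and 16.8 ± 1.45 FPKM, and its partner MDM4 8.84 ± 0.362 and 8.30 ± 0.487 FPKM (SD, n = 3). TP53INP1, a p53 target that promotes death and autophagy, spanned 12.6 to 13.7 FPKM with SM and 11.8 to 17.2 with SM+BQ788. PHLDA3, an inhibitor of AKT, had 2, 1 and 2 reads with SM and 7, 3 and 7 with SM+BQ788, without overlap but too close to the floor of 3 reads for a fold or a test, and 741 of its bases are shared with CSRP1.

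Among the mitochondrial release and IAP genes DIABLO had the smallest p. It encodes Smac, which leaves mitochondria with cytochrome c and lifts the block that inhibitor of apoptosis proteins (IAPs) place on caspases, and lies on chromosome 15 (5814045 to 5818534, minus strand). Its level was 14.6, 14.99 and 14.5 FPKM with SM and 16.4, 17.8 and 19.0 FPKM with SM+BQ788. The groups did not overlap (a mean 20.6% higher; log2 fold change 0.25, SE 0.07, limma adjusted p = 0.103). XIAP, the caspase inhibitor that Smac binds, measured in the BIRC8 row 5.11, 4.75 and 5.15 FPKM with SM and 5.46, 5.92 and 6.92 with SM+BQ788. It too was higher without overlap, with a log2 difference of 0.24 (SE 0.09; adjusted p = 0.201 in limma). CYCS, at 60.8, 61.9 and 63.8 FPKM with SM and 50.04, 63.0 and 59.0 with SM+BQ788, and the IAP gene BIRC2, at 29.7 to 32.9 and 28.1 to 31.0 FPKM, overlapped.

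The listed caspases gave 1 difference at an unadjusted p under 0.05 in limma. CASP8, the initiator of the receptor route, on chromosome 7 (11064313 to 11073955, plus strand), measured 4.28, 5.31 and 4.62 FPKM with SM and 3.92, 4.11 and 3.65 FPKM with SM+BQ788. All 3 treated libraries were below the lowest control, on 136 to 200 reads per library. The log2 difference was -0.23 (SE 0.09, limma adjusted p = 0.214). Its unadjusted p was 0.0753 in limma voom, and in limma 0.0713 with plain totals and 0.0628 with no filter. CASP6, an executioner and the most abundant caspase of the list, spanned 9.99, 10.9 and 11.3 FPKM with SM and 9.86, 12.6 and 12.8 with SM+BQ788, where replicate 1 was below every control and the others above. The initiators CASP9 (7.54 ± 0.139 against 7.79 ± 0.825 FPKM) and CASP2 (5.26 ± 0.259 against 5.48 ± 0.344) and the apoptosome scaffold APAF1 (3.72 ± 0.254 against 3.83 ± 0.342) had log2 fold changes of 0.03 to 0.05, each smaller than its SE.

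Among the listed survival genes of the BCL2 family MCL1 was the most abundant. It measured 91.0, 82.7 and 106.2 FPKM with SM and 52.5, 78.2 and 89.9 FPKM with SM+BQ788. SM+BQ788 replicate 1 was far below the rest while replicate 3 lay among the controls, and the log2 difference of -0.37 (SE 0.20; adjusted p = 0.329 in limma) became -0.14 without replicate 1. BCL2L1, which encodes the survival protein BCL-XL, was level at 35.1, 40.1 and 39.0 FPKM against 36.7, 38.7 and 39.4, with a log2 fold change of 0.01 and a 95% interval of -0.16 to 0.18. BCL2 itself averaged 10.3 ± 1.02 and 11.4 ± 1.08 FPKM, and BCL2A1 had 4 to 10 reads with SM and 7 to 20 with SM+BQ788, too few to test.

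On the killing side BAK1, a pore former of the mitochondrial outer membrane, measured 16.7, 16.7 and 14.6 FPKM with SM and 16.5, 12.7 and 12.4 with SM+BQ788. Replicate 1 sat among the controls and the other 2 treated libraries below them (log2 fold change -0.20, SE 0.12, limma adjusted p = 0.361). The related BOK (2.73 ± 0.309 against 2.79 ± 0.245 FPKM), the BH3-only sensor BCL2L11 or BIM (5.34 ± 0.560 against 5.47 ± 0.773) and BID, which couples caspase 8 to mitochondria (2.14 ± 0.335 against 1.85 ± 0.189), overlapped. The 4 listed survival genes, BCL2L10 not among them, summed to 137, 134 and 155 FPKM with SM and 100.3, 129.7 and 141 with SM+BQ788, and the effectors BAK1 and BOK to 19.2, 19.2 and 17.7 against 19.1, 15.4 and 15.5. Their ratio was 7.13, 6.98 and 8.74 in the SM libraries and 5.26, 8.41 and 9.15 in the SM+BQ788 libraries, so that the treated libraries held both the lowest and the highest ratio. BAX, BCL2L2, BAD, BBC3 and HRK, also of the BCL2 family, had no row matched by name or synonym. These sums and ratios therefore leave them out. MCL1 made up 61.7% to 68.7% of this survival sum with SM and 52.4% to 63.6% with SM+BQ788. With BCL2L10, a further survival gene described with the other BCL2 family genes, added to the sum after its values were seen, the ratio was 14.7, 14.7 and 16.98 with SM and 13.7, 22.4 and 25.5 with SM+BQ788. In that ratio treated replicate 1 was again below every control, and replicates 2 and 3 were above them. MCL1 made up 29.2% to 35.3% of the wider sum with SM and 20.04% to 22.8% with SM+BQ788. BCL2L10 itself was higher in every treated library, so the wider ratios and shares follow in part from adding it. They are no separate result on MCL1.

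The 4 listed death receptor and adaptor genes all overlapped between groups. The adaptor FADD measured 16.4, 15.5 and 18.1 FPKM with SM and 16.99, 19.7 and 19.4 with SM+BQ788, and 2 treated libraries exceeded every control. The tumour necrosis factor receptor TNFRSF1A averaged 3.26 ± 0.134 and 3.63 ± 0.493 FPKM, and CFLAR, which encodes the caspase 8 inhibitor FLIP, 3.41 ± 0.152 and 3.06 ± 0.423 FPKM. FAS rested on 24 to 56 reads per library (1.12 ± 0.389 against 1.55 ± 0.479 FPKM). It lies wholly within ACTA2 on the opposite strand, whose row averaged 2.62 FPKM with SM and 0.735 with SM+BQ788, and since no source used here says that counting used strand, its value is uncertain.

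Among stress sensors GADD45B had the smallest p. GADD45B, on chromosome 28 (3744424 to 3746894, minus strand), measured 81.3, 81.3 and 83.0 FPKM with SM and 47.3, 70.8 and 69.6 FPKM with SM+BQ788. The controls were nearly equal and all 3 treated libraries were below them (log2 fold change -0.41, SE 0.15, limma adjusted p = 0.186). Its size rested on replicate 1, without which it was -0.22. The p53 target GADD45A measured 27.5, 23.9 and 23.8 FPKM against 28.7, 21.8 and 19.0, so that its treated libraries fell on both sides of the controls. MAPK8, which encodes the kinase JNK1 (7.05 ± 0.4002 against 7.59 ± 0.624 FPKM), and MAP3K5, which encodes the upstream kinase ASK1 (2.67 ± 0.246 against 2.72 ± 0.330), overlapped, and MAPK10, encoding the neuronal kinase JNK3, stayed at 0.287 to 0.501 FPKM in all 6 libraries.

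**Figure D4:**
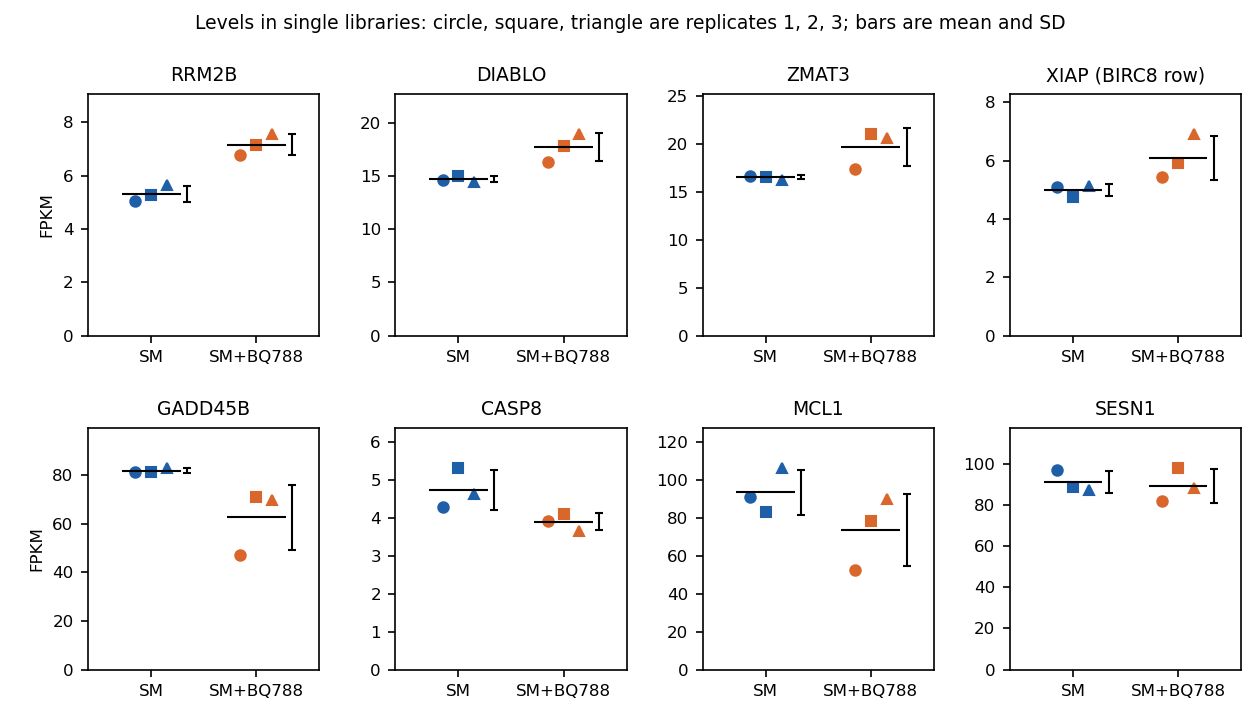
FPKM in single libraries for the genes whose groups did not overlap at an unadjusted p under 0.05, the BIRC8 row read as XIAP, MCL1 and SESN1; lines are means and bars SD (n = 3), and each axis starts at 0. SM+BQ788 replicate 1 is the lowest circle for GADD45B and MCL1, and the SESN1 groups overlap at 87.1 to 97.2 and 81.9 to 98.0 FPKM.

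The same routes were followed in 125 further genes, of which 110 had a row and 98 were tested. In limma 1 of the 98, BNIP3, rose past the adjusted threshold and 0 fell, and 11 were higher and 11 lower at an unadjusted p under 0.05, shares near those of all genes. BNIP3, a mitochondrial protein of mitophagy and cell death, rose from 44.8, 45.7 and 42.4 to 57.4, 54.8 and 54.7 FPKM (log2 fold change 0.32, limma adjusted p = 0.0415). That call was lost without any 1 library other than SM+BQ788 replicate 1 (adjusted p = 0.103 to 0.154), with no filter (0.0571) and with plain read totals (0.102). With 1 of those libraries left out, only 1 to 21 of all genes passed, and BNIP3 had a log2 fold change of 0.29 to 0.34.

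Of 34 further p53 pathway genes tested 0 passed in limma, and 5 higher and 3 lower were under an unadjusted p of 0.05, where 10.8% and 11.9% of all genes tested were. Targets did not share a direction, and 3 named here passed under an alternative, CCNG1 and BTG2 with the replicate number as a block (limma adjusted p = 0.0461 and 0.0476) and CCNG1 and TP53I11 without SM+BQ788 replicate 1 (0.0440 and 0.0484). CCNG1, encoding cyclin G1, measured 25.4, 28.5 and 28.5 FPKM with SM and 34.7, 33.9 and 36.4 with SM+BQ788 (log2 fold change 0.34, limma adjusted p = 0.0551). BTG2, an antiproliferative gene, measured 732, 752 and 778 FPKM with SM and 475, 623 and 478 with SM+BQ788, below every control (-0.53, limma adjusted p = 0.0658), and TP53I11 averaged 53.6 ± 3.91 and 66.4 ± 2.86 FPKM (0.31, limma adjusted p = 0.0781). CDKN1A, the cell cycle inhibitor p21, was looked up after the values were seen and overlapped at 10.6, 11.8 and 17.5 FPKM against 8.90, 13.1 and 16.8, with a log2 fold change of -0.05 that turned to 0.15 without SM replicate 3 and 0.18 without SM+BQ788 replicate 1.

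None of 3 further caspase and inflammasome genes tested passed in limma, and 2 were lower at an unadjusted p under 0.05. That was so for 11.9% of all genes tested, and 3 genes are too few to set against that share. CASP1, which matures interleukin 1 beta, measured 10.9, 12.2 and 12.4 FPKM with SM and 9.15, 10.4 and 8.74 FPKM with SM+BQ788. All 3 treated libraries were below the controls (-0.30 on the log2 scale, limma adjusted p = 0.110). GSDME, a pore former of the gasdermin family, averaged 3.80 ± 0.178 and 2.96 ± 0.323 FPKM (-0.28, limma adjusted p = 0.135, and 0.04999 without SM+BQ788 replicate 1), also without overlap. It was read from the row named DFNA5, matched by RefSeq synonym, and is counted among the 3 tested.

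Of 9 further BCL2 family genes BNIP3 passed, and 4 higher and 1 lower, BNIP3 among them, were under an unadjusted p of 0.05. The shares over all genes tested were 10.8% higher and 11.9% lower. BCL2L10, a survival gene known in birds as NR-13, measured 146, 149 and 146 FPKM with SM and 162, 215 and 252 FPKM with SM+BQ788, above every control (log2 fold change 0.49, limma adjusted p = 0.133, and 0.0193 without SM+BQ788 replicate 1). Its SM mean of 147 FPKM exceeded that of MCL1, at 93.3 FPKM. BCL2L15 averaged 13.4 ± 2.28 and 7.85 ± 1.57 FPKM (-0.70, limma adjusted p = 0.0731, and 0.0487 with the block), and BNIP2 8.28 ± 0.148 and 9.80 ± 0.197 FPKM (0.22, limma adjusted p = 0.0973).

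Over all genes tested 10.8% were higher and 11.9% lower at an unadjusted p under 0.05 in limma. The mitochondrial and IAP list (12 tested), the death receptor and NF-kB list (19 tested) and the JNK and p38 list (21 tested) held no call in limma. Under that unadjusted p the mitochondrial list had 1 higher gene and the death receptor list 1 lower. The JNK and p38 list had 1 higher and 4 lower. The higher gene was MAPK9 (0.36 on the log2 scale, limma adjusted p = 0.189), whose groups overlapped. From these lists PARP1, a DNA repair enzyme, had a log2 fold change of 0.17 (limma adjusted p = 0.204), and the death receptor gene TNFRSF25 -0.63 (0.119), each without overlap between groups. JUN, the transcription factor that JNK phosphorylates, measured 497, 482 and 411 FPKM with SM and 383, 368 and 286 with SM+BQ788, below every control (-0.43, limma adjusted p = 0.129, and 0.0335 with the block). The p38 kinase gene MAPK12 (-0.25, limma adjusted p = 0.0991, and 0.0440 without SM+BQ788 replicate 1) and TXN, encoding the thioredoxin that holds ASK1 inactive (-0.19, limma adjusted p = 0.121), were lower without overlap as well.

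**Figure D5:**
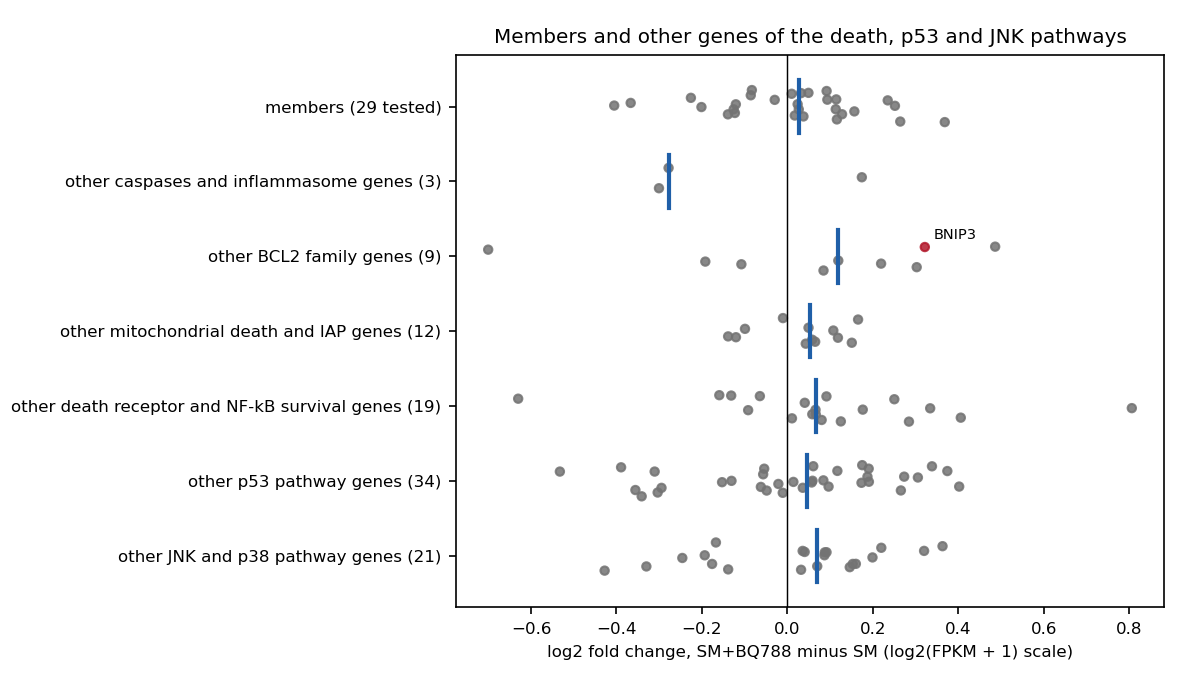
Log2 fold change (SM+BQ788 minus SM, log2(FPKM + 1) scale) of the 29 apoptosis and p53 genes tested, labelled members, and of 98 further pathway genes in 6 lists; bars are medians and red points passed an adjusted p of 0.05 in limma. BNIP3 at 0.32 is the only red point, and the 29 have a median of 0.03.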

How the data were processed

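The authors deposited FPKM per gene in 1 table for 6 libraries, with coordinates on GRCg7b. The submitters' processing notes name fastp and GRCg7b. The sources used here give no aligner, counter or use of strand. Per the labels, 400 ng of total RNA entered the libraries, and epithelium was detached with thermolysin at 500 µg/ml. Multiplied by gene length, 100% of values were whole multiples of 1 read per library within 0.01 of a read, so reads could be recovered. The library size that the FPKM imply was 0.948 (SM+BQ788 replicate 3) to 1.06 (SM+BQ788 replicate 1) times the recovered reads. The FPKM were therefore not scaled by these totals alone, and the sources used here do not give the scaling. For a gene 1 kb long, 3 reads equal 0.169 to 0.193 FPKM depending on the library; this floor covers counting error only.

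Values of log2(FPKM + 1) were compared in limma 3.58.1 (R 4.3.3) with eBayes and a trend, two-sided, and Benjamini-Hochberg adjustment covered the 11857 genes averaging 1 FPKM or more. Fold changes are on that scale and understate those of low genes. Alternatives were a pseudocount of 0.1, dropping the filter or raising it to 5 FPKM, median-of-ratios scaling, plain totals, a replicate block, limma voom on recovered reads, and leaving out each library. The script was tested on simulated data. Members and lists were chosen with earlier results of these data known. Values in every library are given for members with an unadjusted p under 0.05, with groups that do not overlap, or with the highest level of their role. From the other lists come calls and up to 3 genes each with the smallest p. CDKN1A, MAPK9 and the BIRC8 row, and single-library values of BCL2L1 and GADD45A, were added after their values were seen. Some pathway genes are not reported here and are left out of the list counts. Python 3.11.15 made the summaries.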

Additional observations from a re-analysis of the deposited data

How the results depend on the processing

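Of the 29 genes tested 20 kept their direction under every alternative they entered, 13 for the 21 genes that passed the filter of 5 FPKM and 1 fewer for the others. The count of all genes past the adjusted threshold, 355 in limma, was 68 with no filter, 220 with plain totals, and 1 to 1304 with 1 library left out (1 without any SM library or SM+BQ788 replicate 2, 21 without replicate 3). Higher genes made up 25.1% of calls, and 47.8% without SM+BQ788 replicate 1. Among the 29, RRM2B passed with limma voom (1 call), and leaving out 1 library gave 0 to 4 calls. Their median log2 fold change ran from 0.0134 to 0.0503 with 1 library left out. Direction turned, with 1 library left out, in APAF1 (-0.0196 to 0.0825), BCL2L1 (-0.0461 to 0.0481), BCL2L11 (-0.0572 to 0.116), BOK (-0.0255 to 0.0914), CASP9 (-0.0355 to 0.0951), GADD45A (-0.284 to 0.000204), MAP3K5 (-0.0546 to 0.0701), SESN1 (-0.0979 to 0.0305), TP53INP1 (-0.00458 to 0.249) and CDKN1A (-0.246 to 0.178). BCL2L1 was at -0.00308 with median-of-ratios scaling. The causes were not tested. With the replicate block 749 genes and 1 of the 29, RRM2B (adjusted p = 0.0410), passed, as did JUN (0.0335), CCNG1 (0.0461), BTG2 (0.0476) and BCL2L15 (0.0487) of the other lists. Deviations of same-numbered libraries correlated at 0.50, 0.07 and 0.57. SM+BQ788 replicate 1 with SM replicate 3 was at -0.53, and SM+BQ788 replicate 3 with SM replicate 1 at -0.48. SM+BQ788 replicate 2 correlated more with SM replicate 3 (0.13). Replicates 1 and 3 thus followed their numbers and replicate 2 did not, so the numbers are not shown to pair all the samples. Shallow counts limit FAS, and BCL2A1, MAPK10 and PHLDA3 were too low to test.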
